A study of Homo sapiens with 21 samples.

Results

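The 10 genes described here encode kinases and adaptors of focal adhesions: ILK, LIMS1, PARVA, FERMT2, TLN1, VCL, PTK2, SRC, PXN and BCAR1. They were taken by symbol from a table of 60728 genes, and 10 of 10 were found and passed the filter on low counts that left 18584 genes for testing. RNA-Seq was performed on SK-N-BE(2), a human neuroblastoma cell line with MYCN amplification, 72 h after lentiviral transduction with shRNAs, in 7 conditions of 3 libraries each (21 libraries). The question was how silencing ARID1A and ARID1B, alternative structural subunits of the BAF chromatin remodelling complex, alters expression. The conditions were Control, shARID1A.2 and shARID1A.4 (label shARID1A), shARID1B.2 and shARID1B.3 (label shARID1B), and shARID1A/B.2.3 and shARID1A/B.4.2 (label shARID1A/B). All 21 libraries, Control included, came from transduced cells of 1 line, and the labels call the 3 libraries of a condition biological triplicates without saying whether the transductions were separate, so p-values measure only the spread between these libraries.

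Focal adhesions are the sites at which integrins in the plasma membrane are coupled to the extracellular matrix outside the cell and to actin filaments inside it. Talin and kindlin bind integrin tails and switch integrins on, vinculin and the complex of ILK with PINCH and parvin strengthen the link to actin, and FAK and SRC phosphorylate paxillin and p130Cas, which recruit regulators of migration. Neuroblastoma arises from the sympathoadrenal lineage of the neural crest, and its cells use these structures to attach to matrix and to move.

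Values are normalised read counts (reads divided by a size factor for each library), and 27954334 to 41077638 reads were recovered per library. ARID1A and ARID1B were examined first, because they show which target was low under each label. ARID1A read 6097, 6374 and 6463 in the Control libraries and ARID1B read 5793, 5804 and 5791. In the libraries labelled shARID1A both were low, with ARID1A at 34.0% and 35.55% of the Control mean and ARID1B at 38.67% and 53.49% in shARID1A.2 and shARID1A.4, respectively. In the libraries labelled shARID1B it was ARID1A that was low, at 30.43% in shARID1B.2 and 39.27% in shARID1B.3, while ARID1B stood at 86.33% and 105.1%. In the libraries labelled shARID1A/B it was ARID1B that was low, at 44.85% in shARID1A/B.2.3 and 32.90% in shARID1A/B.4.2, while ARID1A stood at 89.66% and 86.19%. The low targets therefore went against each of the 3 silencing labels, since shARID1A and shARID1B name 1 gene each and shARID1A/B names both, and libraries are named throughout as they are labelled. Each condition was compared on its own libraries, so no value against Control pools conditions with different low targets.

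**Figure D1:**
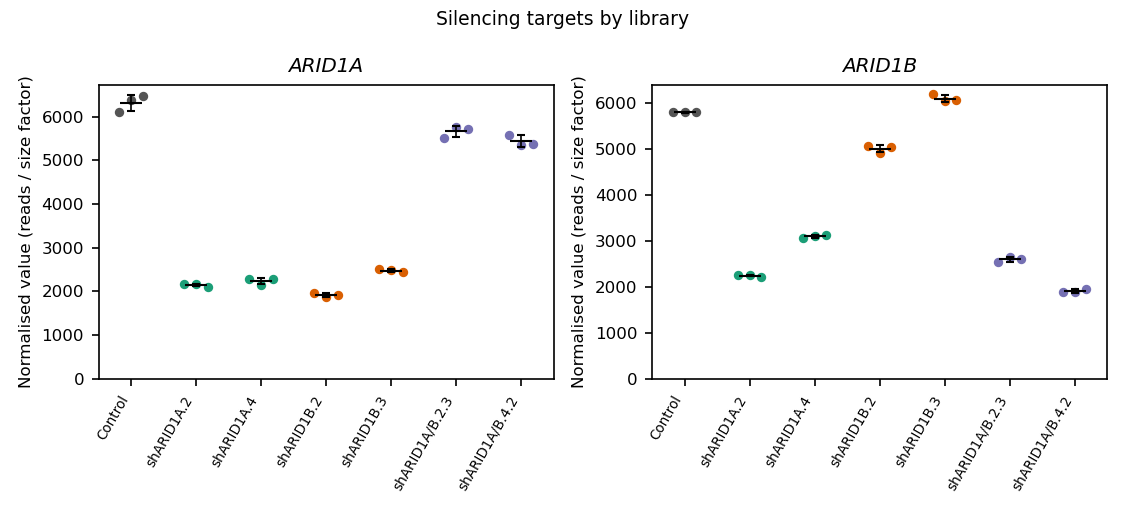
Normalised values of ARID1A and ARID1B (vertical axes, reads divided by size factor) in the 3 libraries of each condition (horizontal axes; points are libraries, bars mean ± SD, n = 3). ARID1A was lowest under the labels shARID1A and shARID1B, and ARID1B under the labels shARID1A and shARID1A/B.

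The neuroblastoma markers HAND2 (5778 to 19481), GATA3 (7302 to 11433) and MYCN (77312 to 426870) were expressed in every library. Of the epithelial markers KRT5 was at 0 and CDH1 reached at most 5.41, while EPCAM lay between 58.4 and 227 and was called higher in 5 of 6 conditions, with a log2 fold change of 1.69 in shARID1A.2. Of the blood cell markers CD3E reached at most 8.5, while PTPRC lay between 57.3 and 426 and CD14 between 13.3 and 52.5. The summed blood cell level was 428 to 458 in Control, 313 to 327 in shARID1B.3, 174 to 201 in shARID1A/B.4.2 and between 91.7 and 148 in the other conditions. The fibroblast marker COL1A2 lay between 1.0 and 24.7, but LUM (2737 to 11003), DCN (1187 to 4785) and PDGFRA (287 to 1767) were expressed. The summed level of the 4 fibroblast markers was 14320 to 14630 in Control, 13580 to 13980 in shARID1B.2, 10020 to 11630 in shARID1B.3, 9818 to 10390 in shARID1A/B.4.2, 7886 to 8492 in shARID1A.2, 6461 to 6597 in shARID1A/B.2.3 and 4338 to 4587 in shARID1A.4. The part of these markers in the results for the 10 genes was not tested. In bulk RNA, fewer cells of a type and less RNA per cell cannot be told apart.

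The stretches directly before the first annotated transcript start of 3 members are printed because ILK was lower in every silenced condition, PXN varied most between conditions, and LIMS1 shares sequence with other genes. They come from the RefSeq promoter set of GRCh38.p14, which held 7 of the 10 members, and end at the base before the gene. ILK is chr11:6603524-6603707 on the plus strand, PXN chr12:120265772-120265980 on the minus strand and LIMS1 chr2:108534220-108534354 on the plus strand. Capitals mark GGGCGG, the GC box bound by SP factors, or its reverse complement CCGCCC.
ILK: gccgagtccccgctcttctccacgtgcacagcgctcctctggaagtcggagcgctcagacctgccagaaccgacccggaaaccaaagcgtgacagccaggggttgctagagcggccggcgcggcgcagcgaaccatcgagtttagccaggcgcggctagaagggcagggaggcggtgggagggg
PXN: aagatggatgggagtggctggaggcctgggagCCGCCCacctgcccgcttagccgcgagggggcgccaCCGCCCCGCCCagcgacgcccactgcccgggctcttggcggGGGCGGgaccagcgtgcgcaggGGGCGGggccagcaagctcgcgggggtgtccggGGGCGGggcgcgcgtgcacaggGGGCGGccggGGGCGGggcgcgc
LIMS1: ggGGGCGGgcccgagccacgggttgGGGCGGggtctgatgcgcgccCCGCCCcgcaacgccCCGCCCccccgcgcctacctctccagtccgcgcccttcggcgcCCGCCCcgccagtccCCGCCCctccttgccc
The printed PXN stretch held 8 matches, of which 1 pair shared a base, the LIMS1 stretch held 6 and the ILK stretch held 0. Within the full 250 bases before the RefSeq start, which are in part not printed, the first PXN promoter held 8 GC boxes, the first LIMS1 promoter 7 and the ILK promoter 2. The GC content was 81.3% for PXN, 83.0% for LIMS1 and 67.9% for ILK. Over 250 bases upstream on both strands, 42.6% of 35116 promoters held a GC box, 11.9% the TEAD letters GGAATG, 6.57% the AP-1 letters TGANTCA, 32.0% CCAAT and 1.16% a CArG box. The printed stretches of ILK, PXN and LIMS1 held none of these other 4 motifs.

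Fold changes are differences of mean log2(value + 1) and calls are at a limma adjusted p under 0.05 over all 18584 genes. Of 60 values (10 genes in 6 silenced conditions), 44 were called lower than Control, 8 higher and 8 were not called. In shARID1A.2, 8 of the 10 genes were lower and 0 higher, where 38.2% of all genes tested were lower and 37.9% higher. In shARID1A.4, 6 were lower and 2 higher, against 36.6% and 37.0% of all genes. In shARID1B.2, 9 were lower and 1 higher, against 34.0% and 31.6%. The lower calls thus outnumbered the higher ones in these 3 conditions, while over all genes the directions were nearly balanced. In shARID1B.3, 8 were lower and 1 higher, against 32.0% and 31.9%. In shARID1A/B.2.3, 4 were lower and 4 higher, against 34.0% and 35.2%. In shARID1A/B.4.2, 9 were lower and 0 higher, against 36.1% and 35.1%. The median log2 fold change of the 10 genes was -0.72, -0.24, -0.50, -0.22, -0.02 and -0.49 in the same order, beside all-gene medians of 0.01 to 0.02. The condition labelled shARID1A/B.2.3 was the only one with as many genes called higher as lower. Calls in both directions also occurred in shARID1A.4 (PXN 0.35 and PTK2 0.24 higher), shARID1B.2 and shARID1B.3.

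**Figure D2:**
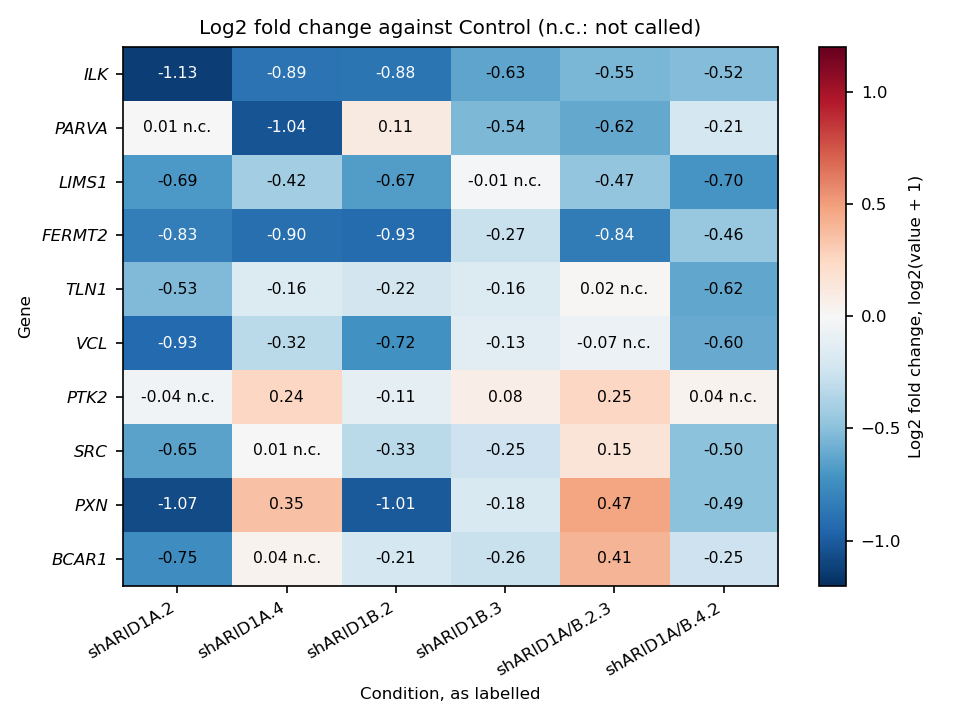
Log2 fold change of each gene (rows) against Control in each condition as labelled (columns), on the log2(value + 1) scale, with blue for lower, red for higher and n.c. for not called. ILK and FERMT2 were lower in all 6 columns, and PXN ranged from -1.07 to 0.47.

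ILK (ENSG00000166333.14, chromosome 11, 6603708 to 6610874, plus strand) encodes integrin-linked kinase, a pseudokinase that scaffolds PINCH and parvin at integrin tails. Its normalised values were 3081, 3225 and 3179 in Control. They were 1386, 1494 and 1450 in shARID1A.2 and 1668, 1728 and 1722 in shARID1A.4. Each silenced library lay below every Control library, and shARID1A.2 was the lowest condition. The values were 1685, 1761 and 1701 in shARID1B.2 and 1968, 2166 and 2001 in shARID1B.3. They were 2084, 2211 and 2168 in shARID1A/B.2.3 and 2153, 2366 and 2083 in shARID1A/B.4.2. The shARID1B.3, shARID1A/B.2.3 and shARID1A/B.4.2 libraries overlapped one another. ILK fell by 1.13 (SE 0.04) on the log2 scale in shARID1A.2, with a limma adjusted p of 7.22e-18, and by 0.52 in shARID1A/B.4.2, with a limma adjusted p of 4.39e-11. The fold change was -0.89 in shARID1A.4 and -0.55 in shARID1A/B.2.3, and under the label shARID1B it was -0.88 in shARID1B.2 and -0.63 in shARID1B.3. TAF10, a TFIID subunit gene on the opposite strand, overlaps 4579 bases of ILK, and its log2 fold changes lay between -0.15 and 0.17.

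LIMS1 (ENSG00000169756.16, chromosome 2, 108534355 to 108687246, plus strand) encodes PINCH1, the LIM-domain partner of ILK. It read 4634, 4270 and 4455 in Control and 4274, 4578 and 4396 in shARID1B.3. These libraries overlapped, and the log2 difference of -0.01 (95% interval -0.08 to 0.06) was not called and was positive under TMM, upper-quartile and total-read scaling. LIMS1 read 2773, 2823 and 2696 in shARID1A.2 and 3314, 3294 and 3395 in shARID1A.4. It read 2806, 2843 and 2727 in shARID1B.2. It read 3363, 3212 and 3077 in shARID1A/B.2.3 and 2771, 2713 and 2710 in shARID1A/B.4.2. All of these 15 libraries lay below Control, with log2 fold changes of -0.69, -0.42, -0.67, -0.47 and -0.70 (SE 0.03). Of the 50-base words of LIMS1 transcripts, 21.1% occur in other genes, and 20.3% occur in LIMS3. The other genes that share most of them are LIMS4 and AC112229.3. LIMS3 averaged 167 ± 17.9 (SD, n = 3) and LIMS4 84.5 ± 26.4 in Control, beside a LIMS1 mean of 4453, and how the authors' counting split reads among the copies is uncertain.

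PARVA (ENSG00000197702.14, chromosome 11, 12377185 to 12535356, plus strand) encodes alpha-parvin, which links ILK to actin. It read 4069, 3883 and 3892 in Control and 3911, 4034 and 3963 in shARID1A.2, which overlapped. In shARID1A.4 it read 1973, 1941 and 1860, 48.76% of the Control mean and the lowest of the 7 conditions. PARVA therefore separated the conditions labelled shARID1A, and the direct difference is given further on. It read 4244, 4309 and 4238 in shARID1B.2, above every Control library, and 2599, 2843 and 2702 in shARID1B.3. It read 2516, 2577 and 2629 in shARID1A/B.2.3 and 3425, 3451 and 3375 in shARID1A/B.4.2. The log2 fold changes were 0.01 (not called, 95% interval -0.05 to 0.07), -1.04, 0.11, -0.54, -0.62 and -0.21 (SE 0.03), listed label by label as in the description of the conditions. The last of these, in shARID1A/B.4.2, was -0.02 and not called under total-read scaling, with a limma adjusted p of 0.538.

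FERMT2 (ENSG00000073712.15, chromosome 14, 52857268 to 52952435, minus strand) encodes kindlin-2, which binds beta integrin tails beside talin and recruits ILK. It read 15403, 14923 and 15078 in Control, the highest level per kilobase of the 10 genes. It read 8415, 8657 and 8536 in shARID1A.2 and 7871, 8162 and 8249 in shARID1A.4. The libraries of shARID1A.4 were lower than those of shARID1A.2, and they stood at 53.48% and 56.40% of the Control mean, respectively. It read 7873, 8162 and 7873 in shARID1B.2, but 11801, 13338 and 12565 in shARID1B.3. It read 8411, 8538 and 8362 in shARID1A/B.2.3 and 10874, 11365 and 10804 in shARID1A/B.4.2. No silenced library reached the Control range. The largest fall was 0.93 (SE 0.03) on the log2 scale in shARID1B.2 (limma adjusted p = 2.61e-18), and the smallest was 0.27 in shARID1B.3 (limma adjusted p = 4.47e-08). 

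TLN1 (ENSG00000137076.21, chromosome 9, 35696948 to 35732395, minus strand) encodes talin-1, the main link from integrin tails to actin. It read 10963, 11005 and 11210 in Control and 11043, 11313 and 11249 in shARID1A/B.2.3. These overlapped, and the log2 difference was 0.02 (95% interval -0.02 to 0.06, not called). In that condition TLN1 was called higher under upper-quartile (0.09, limma adjusted p = 0.000216) and total-read scaling (0.05, limma adjusted p = 0.0213). It read 7515, 7645 and 7762 in shARID1A.2 and 7086, 7276 and 7215 in shARID1A/B.4.2, the lowest conditions. It read 9939, 10016 and 9737 in shARID1A.4, 9355, 9581 and 9516 in shARID1B.2, and 9788, 10049 and 9851 in shARID1B.3. These 3 conditions lay between the others, below every Control library. The log2 fold changes were -0.53 in shARID1A.2, -0.16 in shARID1A.4, -0.22 in shARID1B.2, -0.16 in shARID1B.3 and -0.62 in shARID1A/B.4.2 (SE 0.02). CREB3, on the opposite strand, overlaps 61 bases of TLN1, and its log2 fold changes lay between -0.21 and 0.26.

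VCL (ENSG00000035403.18, chromosome 10, 73995193 to 74121363, plus strand) encodes vinculin, which binds stretched talin and actin. It read 8336, 8167 and 8147 in Control. It read 4244, 4349 and 4341 in shARID1A.2, 52.47% of the Control mean, and 6694, 6543 and 6466 in shARID1A.4. Among the conditions labelled shARID1B it read 4917, 5075 and 4918 in shARID1B.2 and 7048, 8042 and 7498 in shARID1B.3. The shARID1B.3 libraries were the most widely spread, with an SD of 498 beside 104 in Control. VCL read 7698, 7978 and 7873 in shARID1A/B.2.3 and 5185, 5656 and 5378 in shARID1A/B.4.2. The log2 fold changes were -0.93, -0.32, -0.72, -0.13, -0.07 and -0.60 (SE 0.03) in the same order of conditions, and the value of -0.07 in shARID1A/B.2.3 was not called. Every VCL library of that condition was nonetheless below every Control library. AP3M1, on the opposite strand, overlaps 1109 bases of VCL, and its log2 fold changes lay between -0.34 and 0.25. Whether counting used strand is not given in the sources used here.

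PTK2 (ENSG00000169398.19) encodes focal adhesion kinase (FAK), which autophosphorylates when integrins cluster. It moved least, with log2 fold changes from -0.11 to 0.25. It read 6527, 6420 and 6191 in Control and 6149, 6132 and 6273 in shARID1A.2, which overlapped. It read 7429, 7669 and 7561 in shARID1A.4 and 7653, 7661 and 7397 in shARID1A/B.2.3. These 6 libraries were above all others, at 118.4% and 118.7% of the Control mean. PTK2 read 5905, 5976 and 5847 in shARID1B.2 and 6577, 6778 and 6837 in shARID1B.3. It read 6563, 6568 and 6565 in shARID1A/B.4.2. Its log2 fold changes were 0.24 (limma adjusted p = 6.04e-10) in shARID1A.4 and 0.25 (5.68e-10) in shARID1A/B.2.3 (SE 0.02). It was called lower in shARID1B.2 (-0.11) and higher in shARID1B.3 (0.08), and it was not called in shARID1A.2 (-0.04) or shARID1A/B.4.2 (0.04). In shARID1A/B.4.2 it was called higher by edgeR with TMM (0.08, adjusted p = 0.00308) and by limma under TMM (0.08), upper-quartile (0.20) and total-read scaling (0.23), and also without Control replicate 1 (0.06).

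The direction of PTK2 depended on scaling in shARID1A.2 and shARID1B.2, and in the other conditions PTK2 was above Control under every scaling. Dividing by total reads instead of the deposited size factors moved the all-gene median log2 fold change to 0.19 in shARID1A.2, 0.15 in shARID1B.2 and 0.20 in shARID1A/B.4.2, and to between 0.04 and 0.05 in the other conditions. Over all genes, the calls in shARID1A.2 went from 7094 lower and 7048 higher to 5571 lower and 8787 higher. In shARID1B.2 they went from 6320 and 5869 to 4632 and 7891, and in shARID1A/B.4.2 from 6708 and 6522 to 4836 and 8903. Under that scaling PTK2 was at 0.13 in shARID1A.2 and 0.03 in shARID1B.2, in both cases below the median gene, but at 0.23 in shARID1A/B.4.2, above it. With upper-quartile scaling PTK2 was at 0.14, 0.01 and 0.20 in these conditions, beside all-gene medians of 0.20, 0.13 and 0.18. Under either scaling the counts of the 10 genes in shARID1A.2 became 8 lower and 2 higher. Those in shARID1B.2 and in shARID1A/B.4.2 became 7 lower and 1 higher.

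SRC (ENSG00000197122.11, chromosome 20, 37344685 to 37406050, plus strand) encodes the tyrosine kinase that docks on FAK. It read 2625, 2761 and 2706 in Control and 2704, 2703 and 2728 in shARID1A.4. Those conditions overlapped, with a log2 difference of 0.01 (95% interval -0.05 to 0.07, not called). It read 1725, 1701 and 1745 in shARID1A.2, the lowest condition. It read 2173, 2145 and 2138 in shARID1B.2 and 2331, 2163 and 2305 in shARID1B.3, which overlapped. It read 3019, 2958 and 3028 in shARID1A/B.2.3, above every other condition, and 1886, 1965 and 1887 in shARID1A/B.4.2. The log2 fold changes were -0.65 in shARID1A.2, -0.33 in shARID1B.2, -0.25 in shARID1B.3, 0.15 in shARID1A/B.2.3 and -0.50 in shARID1A/B.4.2 (SE 0.03).

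PXN (ENSG00000089159.16, chromosome 12, 120210439 to 120265771, minus strand) encodes paxillin, the scaffold phosphorylated by FAK and SRC, and its fold changes spanned the widest range of the 10 genes (1.55 on the log2 scale). It read 3510, 3508 and 3417 in Control. It read 1708, 1620 and 1630 in shARID1A.2 and 4440, 4415 and 4425 in shARID1A.4. The conditions of label shARID1A thus lay on opposite sides of Control. It read 1657, 1805 and 1716 in shARID1B.2 and 2931, 3236 and 3039 in shARID1B.3. It read 4692, 4961 and 4857 in shARID1A/B.2.3 and 2343, 2633 and 2454 in shARID1A/B.4.2, again on opposite sides of Control. The log2 fold changes were -1.07 (limma adjusted p = 5.3e-18), 0.35 (1.91e-08), -1.01, -0.18, 0.47 and -0.49 (SE 0.04), in the same order of conditions. PXN-AS1, an antisense transcript that overlaps 2700 bases of PXN, was lower in shARID1A.4 (-0.67), shARID1B.3 (-0.36) and shARID1A/B.2.3 (-0.75) and was not called in shARID1A.2 (-0.12), shARID1B.2 (0.00) or shARID1A/B.4.2 (0.12). Its Control mean was 229 ± 15.1 (SD, n = 3). The library kit keeps strand, but whether counting used it is not given in the sources used here.

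BCAR1 (ENSG00000050820.17, chromosome 16, 75228187 to 75268053, minus strand) encodes p130Cas, the docking protein phosphorylated by SRC in adhesions. It had the lowest level per kilobase and the largest error of the 10 genes (SE 0.08 on the log2 scale). It read 1270, 1157 and 1262 in Control and 1292, 1266 and 1234 in shARID1A.4, which overlapped. It read 778, 655 and 770 in shARID1A.2 and 1587, 1593 and 1706 in shARID1A/B.2.3. These conditions lay below and above Control with log2 fold changes of -0.75 and 0.41. It read 1026, 1023 and 1129 in shARID1B.2, 1117, 1058 and 907 in shARID1B.3, and 897, 1182 and 1038 in shARID1A/B.4.2, with log2 fold changes of -0.21, -0.26 and -0.25. 1 library of shARID1A/B.4.2 was within the Control range. The call in shARID1B.2 was lost when Control replicate 1 or 3 or shARID1B.2 replicate 1 or 2 was left out (log2 fold changes -0.19 to -0.20), that in shARID1B.3 without its replicate 3 (-0.18) and that in shARID1A/B.4.2 without its replicate 1 (-0.15). Of the 50-base words of BCAR1 transcripts, 7.91% occur in other genes, mainly AC009078.3 and the BCAR1 pseudogenes.

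**Figure D3:**
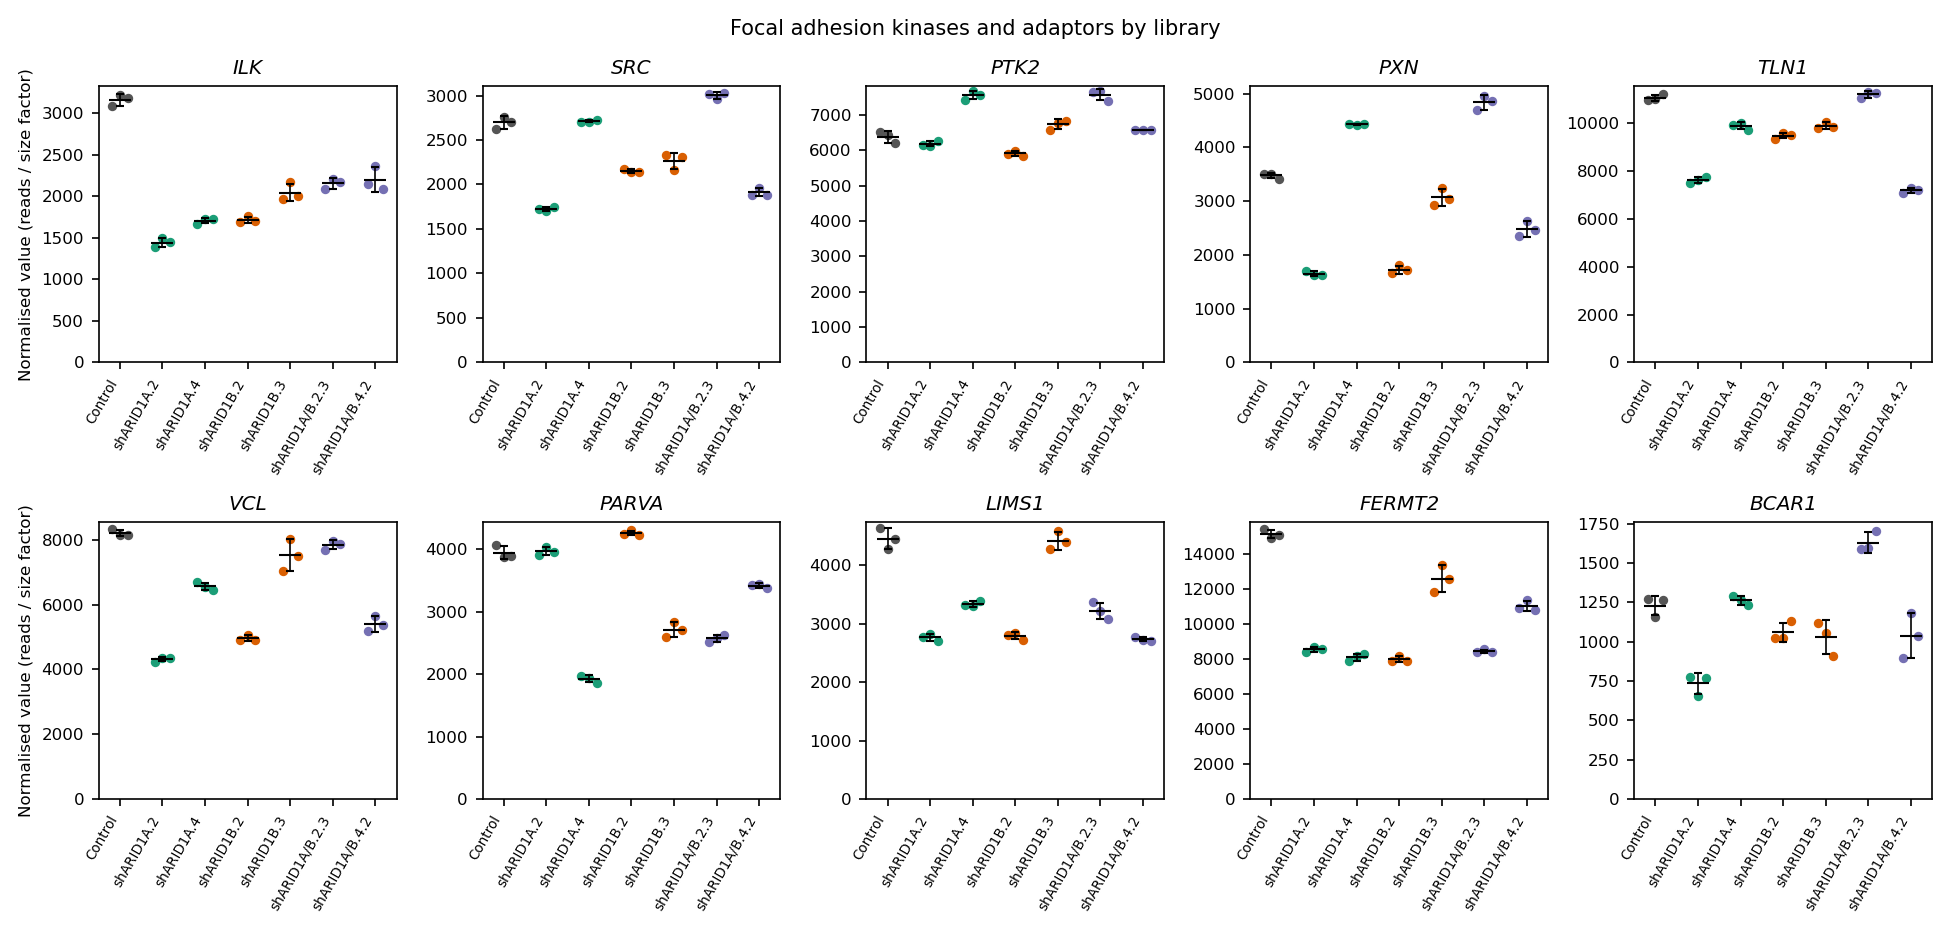
Normalised values (vertical axes from 0, reads divided by size factor) of the 10 genes in the 3 libraries of each condition (horizontal axes; points are libraries, bars mean ± SD, n = 3). ILK and FERMT2 stood below Control in every silenced library, and PXN and BCAR1 stood on either side of it.

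The conditions under 1 label were next compared with each other, as different shRNAs or combinations were used under the same name. Between shARID1A.2 and shARID1A.4, 8 of the 10 genes were lower and 2 higher in the former, where 37.3% of all genes were lower and 38.4% higher. PXN differed most, by -1.42 (95% interval -1.50 to -1.34, limma adjusted p = 1.59e-20), and PARVA by 1.04 (0.98 to 1.11). BCAR1 (-0.79), SRC (-0.65) and VCL (-0.61) were also lower in shARID1A.2, whereas FERMT2 differed by 0.08, a call that was lost without the filter on low counts (limma adjusted p = 0.0578). Between shARID1B.2 and shARID1B.3, 8 were lower and 1 higher, where 33.0% of all genes were called in each direction. PXN differed by -0.83, LIMS1 by -0.66, FERMT2 by -0.66 and VCL by -0.60, while PARVA was 0.65 higher in shARID1B.2. SRC (-0.07) and TLN1 (-0.06) were called too, but the sign of both turned under total-read scaling (0.03 and 0.05). For BCAR1 the difference of 0.05 was not called (95% interval -0.12 to 0.21).

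Between shARID1A/B.2.3 and shARID1A/B.4.2, 7 genes were higher and 2 lower in the former, where 37.1% of all genes were higher and 37.8% lower. PXN (0.97), BCAR1 (0.66), SRC (0.65), TLN1 (0.64) and VCL (0.54) were higher in shARID1A/B.2.3, and PARVA (-0.41) and FERMT2 (-0.38) were lower. ILK differed by -0.03 (95% interval -0.12 to 0.06) and was not called. Under upper-quartile (-0.12) and total-read scaling (-0.18) it was called lower in shARID1A/B.2.3. PXN, VCL, PTK2 and LIMS1 were therefore lower in shARID1A.2, shARID1B.2 and shARID1A/B.4.2 than in the other condition of the same label, and PARVA was higher. SRC and TLN1 were lower too, except for the small shARID1B differences that turned under total-read scaling. Those 3 conditions were also the ones in which total-read scaling moved the all-gene median most, and the part of this in the differences was not tested beyond the scalings given here. Marker levels moved with the same conditions. The summed level of 8 neuroblastoma markers was 145700 to 151100 in shARID1A.2 and 469100 to 487400 in shARID1A.4, 124400 to 131000 in shARID1B.2 and 197000 to 220400 in shARID1B.3, and 146200 to 148600 in shARID1A/B.4.2 and 275600 to 282700 in shARID1A/B.2.3. MYCN made up most of these sums, and the other 7 markers summed to between 47140 and 64080 in every library. Without MYCN the ranges of shARID1A.2 (55410 to 56300) and shARID1A.4 (58540 to 60520) did not overlap, and those of the other 2 pairs did. The fibroblast sums given above were higher in shARID1A.2, shARID1B.2 and shARID1A/B.4.2 than in the other condition of the label, and the part of either marker list was not tested. ARID1B was lower in shARID1A.2 than in shARID1A.4 (-0.47) and in shARID1B.2 than in shARID1B.3 (-0.28). It was also lower in shARID1A/B.4.2 than in shARID1A/B.2.3 (difference 0.45), so it moved with the same 3 conditions. ARID1A was lower in shARID1B.2 than in shARID1B.3 (-0.37), and in shARID1A.2 than in shARID1A.4 (-0.06), where the libraries overlapped. Between shARID1A/B.2.3 and shARID1A/B.4.2 ARID1A was not called (0.06). The part of either target was not tested.

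**Figure D4:**
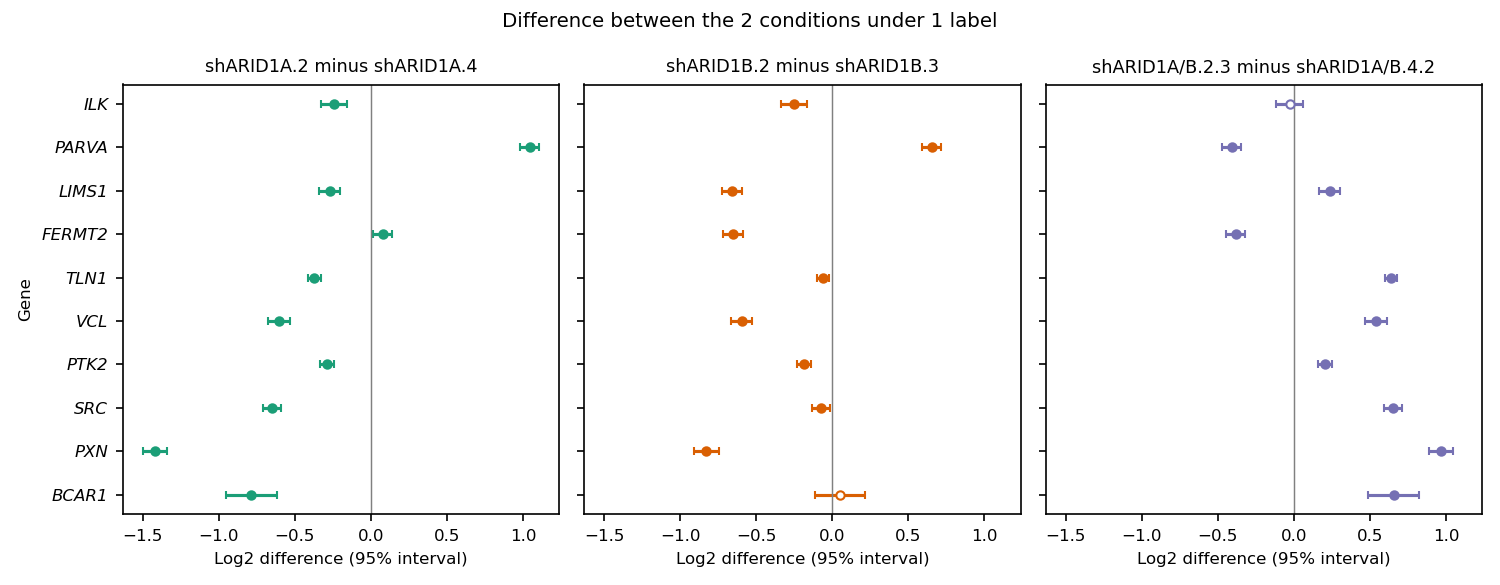
Log2 difference between the conditions of 1 label for each gene (horizontal axes, log2(value + 1) scale; points are estimates, bars 95% intervals, open points not called). PXN and PARVA lay on opposite sides of 0 in each of the 3 panels.

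The labels were then compared directly, each as the mean of its conditions. The intervals and p-values of these contrasts rest on the spread between libraries within a condition. Differences between the conditions of a label do not enter them, so they do not measure how far a label's result would hold for other shRNAs. Against shARID1A, 9 genes were higher and 0 lower in shARID1A/B, where 28.7% of all genes were higher and 30.5% lower. ILK was higher by 0.47 (95% interval 0.41 to 0.53, limma adjusted p = 1.11e-12), and its libraries did not overlap between these labels. BCAR1 (0.43), PXN (0.35) and VCL (0.29) were called as well, but each mean covers conditions that lay far apart, and their libraries overlapped. LIMS1 was not called (-0.03, 95% interval -0.08 to 0.01). Against shARID1B, 6 genes were higher and 4 lower in shARID1A/B, where 35.1% and 35.0% of all genes were called. PXN differed by 0.59 and LIMS1 by -0.24. The lower call of FERMT2 (-0.05, limma adjusted p = 0.0349) was lost without the filter on low counts, under upper-quartile and total-read scaling, with only the libraries compared and in 7 of the fits that left out 1 library (-0.03 to -0.05). Between shARID1A and shARID1B, 6 genes were lower and 2 higher in shARID1A, where 32.8% and 34.6% of all genes were called. PARVA (-0.30), FERMT2 (-0.27) and ILK (-0.25) were lower, and PXN was higher by 0.23. The libraries of every gene overlapped between the labels in these last comparisons. As label means, ILK was lowest under shARID1A, followed by shARID1B and then shARID1A/B. The conditions did not keep this order apart. The ILK libraries of shARID1A.4, where both targets were low, averaged 1706. They overlapped those of shARID1B.2, where ARID1A was the low target, which averaged 1716. The ILK libraries of shARID1B.3 overlapped those labelled shARID1A/B. Whether ILK followed the number of low targets was not tested.

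Per kilobase of exon, Control levels were highest for FERMT2 (1778 ± 28.8, SD, n = 3), followed by TLN1 (1098), ILK (907), VCL (822), LIMS1 (573), PXN (466), PTK2 (464), SRC (417), PARVA (307) and BCAR1 (134). The length of a gene was that of all its annotated exons merged, and the order rests on these lengths. The library ranges of PXN and PTK2 overlapped, and those of all other neighbours in this order did not. These ranges do not measure error in the lengths. Among the 10 genes, SRC and TLN1 had the most similar profiles over the 7 conditions, with a root mean square difference of centred mean log2 values of 0.115, followed by SRC and BCAR1 (0.124). PXN and PARVA were the least similar (0.905). Among 13675 genes with a mean value of at least 50, those closest to ILK over the 7 conditions were PANK2 (0.0721), NHS (0.0845) and DPF1 (0.108). The genes closest to SRC were TASOR2 (0.0425), SIPA1L1 (0.0451) and KIAA0100 (0.0501).

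Other focal adhesion genes were examined in 4 lists. Of the list of talins, kindlins and the ILK module, 10 of 12 genes were tested (PARVG and KANK1 were below the filter), and 9 were lower and 1 higher in shARID1A.2, where 38.2% of all genes were lower and 37.9% higher. In shARID1A/B.2.3, 2 were lower and 5 higher (34.0% and 35.2% of all genes), with a median log2 fold change of 0.25 beside 0.01 for all genes. In shARID1A.4, 5 were lower and 3 higher (36.6% and 37.0%), in shARID1B.2, 6 and 0 (34.0% and 31.6%), and in shARID1B.3 (32.0% and 31.9%) and shARID1A/B.4.2 (36.1% and 35.1%), 5 and 1. These all-gene shares apply to the counts of the other lists as well. RSU1, the PINCH-binding Ras suppressor, averaged 2629 ± 47.1 (SD, n = 3) in Control and was lower in 5 conditions, with a log2 fold change of -1.16 in shARID1B.3, but higher in shARID1A/B.2.3 (0.19). KANK2, a talin-binding adaptor, was lower in 5 conditions (-0.15 to -0.85) and was not called in shARID1B.2 (-0.10). FERMT3, the haematopoietic kindlin, averaged only 45.1 in Control and was lower in shARID1A.2 (-1.87), shARID1B.2 (-2.07), shARID1A/B.4.2 (-1.45) and shARID1A.4 (-0.68).

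All 10 adhesion tyrosine kinases and phosphatases outside the main set were tested. In shARID1A.2, 8 were lower and 1 higher (38.2% and 37.9% of all genes), but in shARID1B.3, 3 were lower and 7 higher (32.0% and 31.9%). There were 5 lower and 4 higher in shARID1A.4, 3 and 4 in shARID1B.2, 3 and 6 in shARID1A/B.2.3, and 6 and 3 in shARID1A/B.4.2. PTK2B, which encodes the FAK relative PYK2, rose in all 6 conditions, from 143 ± 11.6 (SD, n = 3) in Control to 491 ± 24.6 in shARID1A.2 (log2 fold change 1.78) and 195 ± 21.2 in shARID1A/B.2.3 (0.44). LYN, a SRC-family kinase, was lower under shARID1A (-0.36 and -0.42) and shARID1B (-0.69 and -0.86) and higher under shARID1A/B (0.58 and 0.31). PTPRA, a phosphatase that activates SRC-family kinases, was lowest in shARID1A/B.2.3 (-0.88) and higher in shARID1B.2 (0.22).

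Of the 20 paxillin and CAS adaptors, 18 were tested (EFS and CASS4 were below the filter). In shARID1A.2, 14 were lower and 3 higher (38.2% and 37.9% of all genes), and in shARID1A/B.4.2, 14 and 4 (36.1% and 35.1%). In shARID1A/B.2.3, 7 were lower and 10 higher (34.0% and 35.2%). In shARID1B.2, 6 were lower, 4 higher and 8 not called, with a median of 0.01, and there were 9 lower and 6 higher in shARID1A.4 and 12 and 3 in shARID1B.3. LPXN, the paxillin relative leupaxin, rose in all 6 conditions, from 51.5 ± 3.04 (SD, n = 3) to between 78.2 in shARID1B.3 and 214 in shARID1A.2. NEDD9, the CAS-family relative of BCAR1, fell from 690 ± 29.3 to 167 ± 13.9 in shARID1A.2 (-2.04) and was called in 5 conditions, with -0.14 in shARID1B.3 not called. CRKL, an adaptor that binds phosphorylated p130Cas, was lower in all 6 conditions, with -1.54 in shARID1A.4 and -0.07 in shARID1A/B.4.2.

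All 17 actin linkers were tested. In shARID1A.2, 15 were lower and 1 higher (38.2% and 37.9% of all genes), with a median of -1.06, and in shARID1B.2, 15 and 2 (34.0% and 31.6%), with a median of -0.55. In shARID1A/B.4.2, 14 were lower and 2 higher (36.1% and 35.1%), and in shARID1A.4, 12 and 3 (36.6% and 37.0%). The directions were more mixed in shARID1A/B.2.3, with 9 lower and 7 higher (34.0% and 35.2%), and in shARID1B.3, with 8 and 4 (32.0% and 31.9%) and a median of -0.06. TNS3, an integrin-binding tensin, fell from 868 ± 24.8 (SD, n = 3) to 78.5 ± 17.4 in shARID1A.2 (-3.47) and 122 ± 8.44 in shARID1A/B.4.2 (-2.82), yet was 0.27 higher in shARID1A/B.2.3. TNS2, a related tensin, and LPP, a zyxin-family LIM protein, were lower in all 6 conditions, with log2 fold changes of -0.49 to -1.50 and -0.15 to -1.27, respectively.

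**Figure D5:**
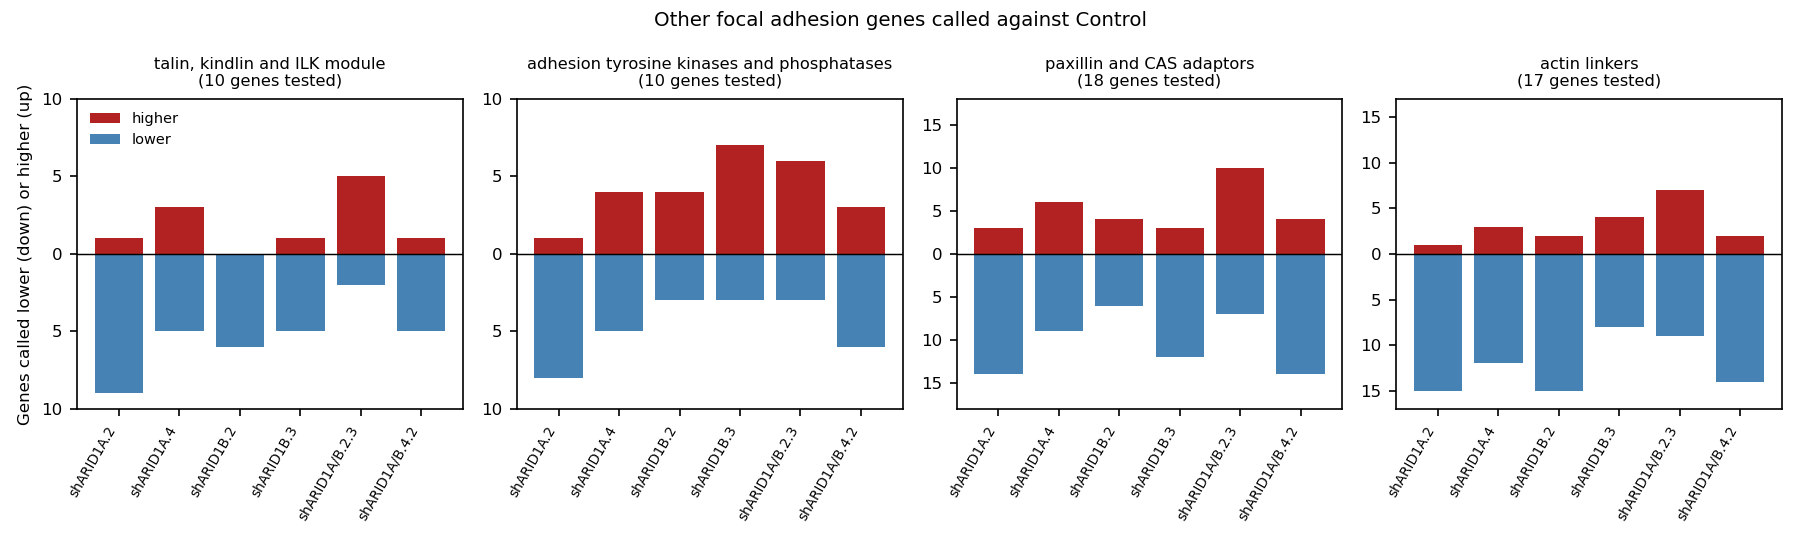
Number of genes (vertical axes) called lower (down, blue) or higher (up, red) than Control in each condition (horizontal axes) for the 4 lists of other focal adhesion genes. The actin linkers had 15 of 17 genes lower in shARID1A.2 and in shARID1B.2.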

How the data were processed

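RNA-Seq libraries were prepared by the authors with a stranded mRNA kit from SK-N-BE(2) cells. The submitters' processing notes name STAR 2.5.3a, RSEM 1.3.0, DESeq2 1.26.0 and GRCh38 without roles. The authors deposited 1 table of normalised signal values per gene and library, which are reads divided by a size factor for each library. A further 3 deposited tables hold the authors' own comparisons with Control (fold changes and p-values) and were not used. No column of values lacked a sample (0 columns). Whole reads were recovered by multiplying by the size factor (0.841 to 1.29, at least 99.998% of values within 0.05 read of a whole number), giving 27954334 to 41077638 reads per library (median 34973565).

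Values were analysed as log2(value + 1) with limma 3.58.1 (trend, 7 condition means, 21 libraries) in R 4.3.3, with Benjamini-Hochberg adjustment over the 18584 genes that passed edgeR's filterByExpr. Label contrasts averaged the conditions under a label. edgeR 4.0.16 (quasi-likelihood, TMM) and DESeq2 1.42.0 on the recovered reads, other pseudocounts, filters and scalings, a replicate block and leaving out each library were the alternatives. In data simulated for shARID1A.2 against Control, the fits were tested on 200 changed genes. Gene positions, overlaps and 50-base words were taken from GENCODE 29 and promoters from RefSeq.

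The members and lists were chosen with earlier results of these data known. Besides the 10 members and the targets, 3 genes of each list of other focal adhesion genes were named. They had the largest absolute mean fold change among those called in the same direction in both conditions of at least 1 label. Also named were the 3 nearest to ILK and to SRC, the near-copies of LIMS1, PXN-AS1 and the protein-coding genes overlapping a member. The replicate numbers did not pair libraries: over 63 same-number pairs, deviations from condition means correlated between -0.0879 and 0.0529. Replicates differed by more than sampling noise (chi-square per degree of freedom 1.55 to 4.26 over 21 pairs), so none was counted as a duplicate.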

Additional observations from a re-analysis of the deposited data

Results flagged for a closer look

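The conditions under 1 label differed in 28 of 30 direct limma comparisons of the 10 genes, which were tested as differences of log2(value + 1). Differences within a label were common over all genes too. Of all genes tested, 37.3% were lower and 38.4% higher in shARID1A.2 than in shARID1A.4. In shARID1B.2 against shARID1B.3 the shares were 33.0% and 33.0%, and in shARID1A/B.2.3 against shARID1A/B.4.2 they were 37.8% and 37.1%. From shARID1A.4 to shARID1A.2 the differences were ILK -0.24, SRC -0.65, PTK2 -0.29, PXN -1.42, TLN1 -0.37, VCL -0.61, PARVA 1.04, LIMS1 -0.27, FERMT2 0.08 and BCAR1 -0.79. From shARID1B.3 to shARID1B.2 they were ILK -0.25, SRC -0.07, PTK2 -0.19, PXN -0.83, TLN1 -0.06, VCL -0.60, PARVA 0.65, LIMS1 -0.66 and FERMT2 -0.66. From shARID1A/B.4.2 to shARID1A/B.2.3 they were SRC 0.65, PTK2 0.21, PXN 0.97, TLN1 0.64, VCL 0.54, PARVA -0.41, LIMS1 0.24, FERMT2 -0.38 and BCAR1 0.66. The differences of FERMT2 in the first comparison and of SRC and TLN1 in the second lost their call when single libraries were left out.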

How the results depend on the processing

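The number of the 10 genes called stayed within 1.5 times the reported count under every alternative run. With at least 8 of 10 called at the start, only a fall could have broken this limit, and the count ignores direction. Under upper-quartile and total-read scaling, shARID1A.2 went from 8 lower and 0 higher to 8 and 2. Under the same scalings, shARID1A/B.4.2 went from 9 and 0 to 7 and 1, and shARID1B.2 from 9 and 1 to 7 and 1. The condition shARID1A/B.2.3 went from 4 and 4 to 4 and 5. Under upper-quartile scaling, shARID1A.4 also went from 6 and 2 to 6 and 3, and shARID1B.3 from 8 and 1 to 7 and 1. Of 2220 fold changes recomputed, 2143 kept direction and side of the threshold, 40 lost the call, 16 gained one and 21 changed sign. With the replicate block, all 120 values kept their call, with 8 of 10 genes called in shARID1A.2 against Control as without it, although the numbers did not pair libraries and 6 of 21 libraries were closest to their own number. Without 1 library at a time, the genes called numbered 8 to 9 in shARID1A.2, 8 in shARID1A.4, 9 to 10 in shARID1B.2, 8 to 9 in shARID1B.3, 8 in shARID1A/B.2.3 and 8 to 10 in shARID1A/B.4.2. Signs changed under upper-quartile scaling for PTK2 in shARID1A.2 (0.138) and shARID1B.2 (0.008), LIMS1 in shARID1B.3 (0.048), VCL in shARID1A/B.2.3 (0.008) and SRC between shARID1A and shARID1B (0.015). They changed under total-read scaling for PTK2 (0.127 and 0.026), LIMS1 in shARID1B.3 (0.016), and SRC (0.034) and TLN1 (0.047) between shARID1B.2 and shARID1B.3, and under TMM scaling and edgeR for LIMS1 in shARID1B.3 (0.015 in each). With 1 library left out, signs varied for LIMS1 in shARID1B.3 (-0.042 to 0.017), PARVA in shARID1A.2 (-0.004 to 0.03), and SRC and BCAR1 in shARID1A.4 (-0.012 to 0.025 and -0.002 to 0.065). They also varied for BCAR1 between shARID1B.2 and shARID1B.3 (-0.039 to 0.111) and ILK between shARID1A/B.2.3 and shARID1A/B.4.2 (-0.068 to 0.024). None of these was called with all libraries under the deposited size factors. The cause of the changed signs was not tested. Upper-quartile scaling gave new calls for PARVA in shARID1A.2 (0.19), SRC in shARID1A.4 (0.093), TLN1 in shARID1A/B.2.3 (0.092) and that ILK difference (-0.118). Total-read scaling gave them for PARVA (0.18), TLN1 (0.053) and ILK (-0.182) in the same comparisons. BCAR1 in shARID1B.2 and shARID1A/B.4.2, PARVA in shARID1A/B.4.2 (-0.046) and VCL in shARID1B.3 (-0.069) lost their call under upper-quartile scaling. On the recovered reads, edgeR called 6928 genes lower and 7260 higher in shARID1A.2 against Control, and DESeq2 called 6818 and 6685, beside 7094 and 7048 with limma. In the simulated data limma found 81 of 100 genes changed by 0.5 and 100 of 100 changed by 1 on the log2 scale. It made 9 false calls among 18584 genes. The simulated data had 1 dispersion for all genes and only 200 changed genes, drawn from those above a minimum of reads. They therefore do not show how the fits behave when most genes are called, as in the real comparison.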
